A study of Rattus norvegicus with 40 samples.

Results

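The 10 genes described here mark microglia, the resident macrophages of the brain: Csf1r, Cx3cr1, P2ry12, Trem2, Tyrobp, Itgam, Aif1, C1qa, C1qb and C1qc. They were chosen by name. Each was read from the probe set that carries its symbol and no other. All 10 had exactly 1 such probe set, so they make up 10 of the 14506 genes with a probe set of their own. Picking the probe sets used no measured value, but the members were chosen with earlier results of these data known. The arrays came from a study of lead given during development, which asked how the hippocampus of young rats responds to dose, exposure window and sex. RNA (100 ng) from hippocampi taken at postnatal day 55 was hybridised to 40 whole-transcript arrays, 4 in each of 10 groups. Males and females exposed to lead acetate in chow, at 250 or 750 ppm, formed 8 groups. Perinatal exposure began in the dams 10 days before breeding and ended at weaning, and postnatal exposure ran from birth to day 45. All exposed animals then ate control chow until day 55. Male and female controls ate control chow throughout. The strain and the litters of the animals are not given in the sources used here, so the p-values measure only the spread between these samples.

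Microglia enter the brain early in embryonic life and then maintain themselves there. Their survival depends on the receptor CSF1R and its ligands CSF1 and IL34. In the healthy hippocampus they survey synapses with fine processes and answer ADP through P2RY12 and neuronal fractalkine through CX3CR1. They also secrete the C1q complex that tags synapses for removal in mice. When microglia become reactive, P2ry12 is usually lost, while genes such as Cst7 are gained.

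The labelled tissue was read beside its markers, with no array of another tissue for comparison. The mean of 8 hippocampal neuron markers lay between 10.30 and 10.52 log2 on the 40 arrays. Among them were Prox1 of dentate granule cells and Neurod6 of pyramidal cells. The mean of 6 choroid plexus genes varied far more, from 6.47 on a female control array to 11.05 in a female given 250 ppm postnatally. The part of such adjoining tissue in the members' values was not tested. Labels of 3 control arrays (male replicate 4, female replicates 1 and 3) went against Eif2s3, an X-linked gene, so the control groups are those labelled male and female. The 3 arrays with the lowest slope of signal against the mean array were set apart, by rank alone, as flattened. These were replicates 1 and 3 of the males given 250 ppm perinatally (slope minus 1 of -0.019 and -0.031) and replicate 1 of those given 750 ppm perinatally (-0.032). Next came male control replicate 2 (-0.013), which was kept. Title numbers of the samples formed 3 ranges. Both control groups shared the first with females given 750 ppm perinatally, males given 750 ppm perinatally were alone in another, and the 6 other groups shared the third. For the 7 exposed groups outside the first range, number range and exposure cannot be told apart. Array medians were 6.96 to 7.06, and a typical probe set had an SD of 0.110 log2 among the arrays of a group.

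No microglia marker passed the test for a difference between lead and control. In the limma test, 0 of 80 member comparisons (10 members, 8 exposed groups) reached an adjusted p under 0.05, where 0.0539% of all probe set comparisons did, and the smallest adjusted p of a member was 0.407. At an unadjusted p under 0.05 there were 14 of 80, against 6.13% of comparisons over all probe sets. Males given 250 ppm perinatally held 4 of the 14 (7.11% of all probe sets there). Males given 750 ppm perinatally held 2 (7.77%), those given 250 ppm postnatally 1 (6.03%) and those given 750 ppm postnatally 2 (9.51%). Females held 1 at 250 ppm perinatal (5.6%), 1 at 750 ppm perinatal (5.81%), 1 at 250 ppm postnatal (3.64%) and 2 at 750 ppm postnatal (3.58%). The members' share was above that of all probe sets in each of the 8 comparisons, by the least where 1 of 10 stood against 6.03%. Any single member makes a share of 1 of 10, which is above every percentage given here. Csf1r alone held 5 of the 14. It was the only one in males given 250 ppm postnatally and in females given 750 ppm perinatally or 250 ppm postnatally. Differences ran from -0.21 to 0.24 log2, folds of 0.864 to 1.18, with 46 above and 34 below control. All 80 95% confidence intervals lay between -0.41 and 0.43 log2, which is 0.753-fold to 1.35-fold, and their median half-width was 0.17. In whole tissue, a difference in the number of microglia and one in RNA per microglial cell cannot be told apart. The number of arrays limited the precision.

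**Figure D1:**
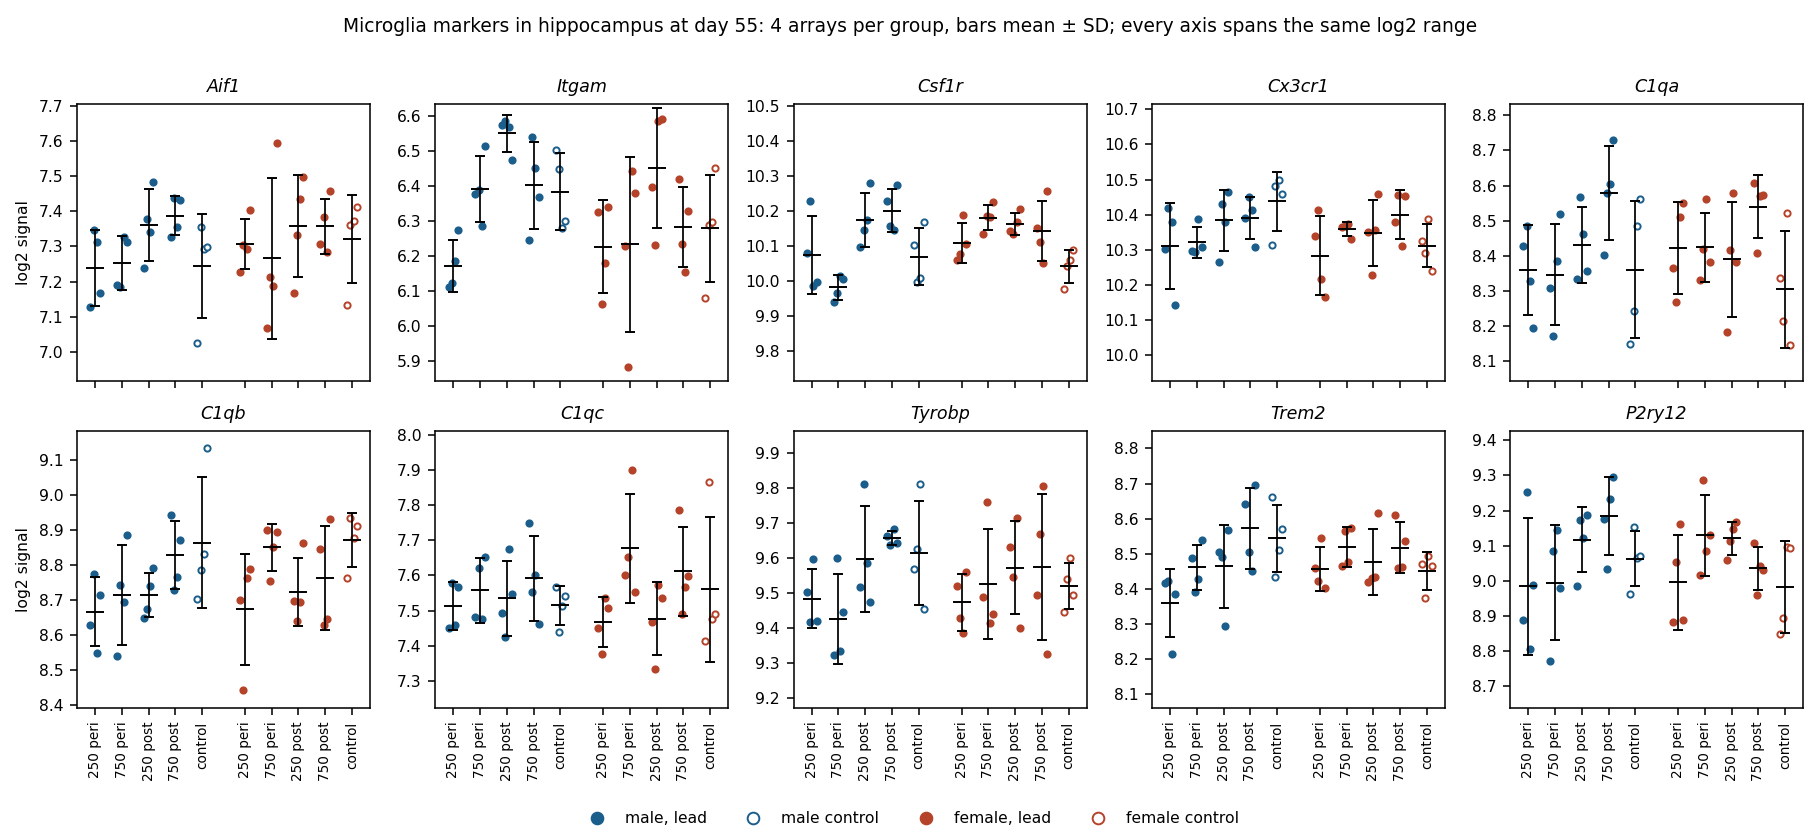
Log2 signal of each microglia marker (1 panel each, all axes spanning the same log2 range) in the 10 groups, with the exposed groups left of the controls of their sex; each point is 1 array and bars give mean ± SD (n = 4). Csf1r in males given 750 ppm perinatally (9.94 to 10.01) lies below every postnatal male, while most other groups overlap.

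By group, the members leaned one way in perinatal males and the other way in most other groups. In males given 250 ppm perinatally 9 of 10 members lay below control, with a median difference of -0.10 log2, while over 14506 genes 7029 lay below and the median was 0.003. Without the flattened arrays 6 of 10 lay below (median -0.07), and without the mismatched controls also 6 (median -0.09). In males given 750 ppm perinatally 7 of 10 lay below (median -0.08), against 6 of 10 (median -0.04) without the flattened array. The members lay higher after postnatal exposure: 6 of 10 were above control in males given 250 ppm (median 0.04) and 8 of 10 in males given 750 ppm (median 0.06). Among females, the members lay above control in 4 of 10 at 250 ppm perinatal (median -0.02) and in 7 of 10 at 750 ppm perinatal (median 0.06). After postnatal exposure 8 of 10 lay above at 250 ppm (median 0.05) and 9 of 10 at 750 ppm (median 0.05), or 6 of 10 without the mismatched controls. Medians over all 14506 genes lay between -0.004 and 0.012 in the 8 comparisons. The 4 comparisons of 1 sex share that sex's controls.

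Csf1r (probe set 10802065) encodes the growth factor receptor that microglia need to survive. In females given 750 ppm perinatally it measured 10.13, 10.18, 10.18 and 10.22 log2, against 9.98, 10.04, 10.06 and 10.09 in female controls. In females given 250 ppm postnatally it measured 10.14, 10.13, 10.17 and 10.21. In both groups every exposed female lay above every control, by 0.14 log2 (SE 0.05, limma adjusted p = 0.550) and 0.12 log2 (SE 0.05, limma adjusted p = 1), so neither passed the test. Of the 80 member comparisons with controls, 4 had groups that did not overlap, against 3.32% over all probe sets. Csf1r averaged 10.11 ± 0.06 in females given 250 ppm perinatally and 10.14 ± 0.09 in those given 750 ppm postnatally, both overlapping the controls (10.04 ± 0.05; SD, n = 4 each). In males it measured 10.23, 10.16, 10.14 and 10.27 after 750 ppm postnatally, against 10.10, 10.00, 10.01 and 10.17 in male controls, a difference of 0.13 (SE 0.05, limma adjusted p = 0.407). The highest control lay inside the exposed range. After 250 ppm postnatally Csf1r measured 10.10, 10.14, 10.17 and 10.28, and after 250 ppm perinatally 10.08, 10.23, 9.99 and 10.00, close to the control mean. After 750 ppm perinatally it measured 9.94, 9.97, 10.01 and 10.01, the lowest mean of the 10 groups. Csf1r thus lay above control in 7 of 8 comparisons, 5 of them at an unadjusted p under 0.05.

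Cx3cr1 (probe set 10920981), the fractalkine receptor through which neurons signal to microglia, measured 10.30, 10.42, 10.38 and 10.14 in males given 250 ppm perinatally. In males given 750 ppm perinatally it measured 10.30, 10.29, 10.39 and 10.31, and in male controls 10.31, 10.48, 10.50 and 10.46. In both exposed groups some arrays lay above the lowest control. The differences of -0.13 and -0.12 log2 (SE 0.06 each) had limma adjusted p = 0.647 and 0.640. In females it averaged between 10.28 and 10.40 in the 4 exposed groups, against 10.31 ± 0.06 in controls.

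P2ry12 (probe set 10823365) encodes the ADP receptor of surveying microglia. It lay above control in 6 of 8 comparisons, with 0 of 8 at an unadjusted p under 0.05. It was 9.13 ± 0.12 in females given 750 ppm perinatally and 9.12 ± 0.05 in females given 250 ppm postnatally, against 8.98 ± 0.13 in female controls (SD, n = 4 each). In males it was highest after 750 ppm postnatally (9.18 ± 0.11), against 9.06 ± 0.08 in controls. All these groups overlapped. The difference of -0.08 in males given 250 ppm perinatally turned to 0.06 without the flattened arrays. Its 8 intervals reached no further than -0.25 and 0.32 log2.

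Trem2 and Tyrobp form 1 receptor: TREM2 binds lipids and lipoproteins outside the cell, and TYROBP (DAP12) carries the signal inside. Trem2 (probe set 10926245) measured 8.42, 8.42, 8.21 and 8.39 in males given 250 ppm perinatally, against 8.66, 8.43, 8.51 and 8.57 in male controls. All 4 exposed males lay below all 4 controls. The difference was -0.18 log2 (SE 0.06, limma adjusted p = 0.439), and -0.14 without the flattened arrays, of which replicate 3 was the lowest. In the other 7 comparisons Trem2 overlapped its controls and differed by at most 0.08 log2 in either direction.

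Tyrobp (probe set 10705874) measured 9.32, 9.60, 9.33 and 9.45 in males given 750 ppm perinatally, against 9.57, 9.63, 9.81 and 9.46 in male controls. The highest exposed array lay among the controls. The difference was -0.19 log2 (SE 0.09, limma adjusted p = 0.610). In females the 4 exposed groups averaged 9.47 to 9.57, against 9.52 ± 0.07 in controls.

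Itgam (probe set 10711268) encodes CD11b, the alpha chain of complement receptor 3, with which microglia engulf C3-tagged material. With a mean of 6.34 log2 over the 40 arrays, Itgam was the dimmest member, above 40.6% of all probe sets. It measured 6.11, 6.12, 6.18 and 6.27 in males given 250 ppm perinatally, against 6.50, 6.45, 6.28 and 6.30 in male controls. All exposed values lay below all control values, by a narrow margin, and the difference was -0.21 log2 (SE 0.10, limma adjusted p = 0.669). After 250 ppm postnatally Itgam stood above control on average in both sexes, by 0.17 log2 in males and 0.17 in females, with overlapping arrays. Females given 750 ppm perinatally spread the most, at 6.23, 5.88, 6.44 and 6.38, against 6.08, 6.29, 6.30 and 6.45 in female controls. Aif1 (probe set 10828032) encodes IBA1, the actin-bundling protein used to stain microglia. It averaged 7.24 to 7.39 in exposed males, against 7.24 ± 0.15 in male controls, and 7.27 to 7.36 in exposed females, against 7.32 ± 0.13 in female controls. It reached an unadjusted p under 0.05 in 0 of 8 comparisons.

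C1qa, C1qb and C1qc encode the 3 chains of C1q, which opens the classical complement cascade. The genes lie together on rat chromosome 5, with C1qc between C1qb and C1qa. The 3 chains assemble into 1 protein. C1qa (probe set 10880734) was above control in 6 of 8 comparisons and below in 2, and C1qb (probe set 10880727) was below in 8 of 8. Whether the chains differed from each other was not tested. Without the mismatched controls C1qb turned to 0.05 in males given 750 ppm postnatally. The upstream sequences of both are shown because the chains belong to 1 gene cluster and lay on different sides of control in 6 of 8 comparisons. Each is the 250 bases before the start of the RefSeq transcript on the GRCr8 assembly, read on the minus strand, for C1qa at chr5:154419934-154420183 and for C1qb at chr5:154407828-154408077. Capitals mark GGAAGT, or its reverse complement ACTTCC, the core bound by factors of the ETS family such as PU.1.
C1qa: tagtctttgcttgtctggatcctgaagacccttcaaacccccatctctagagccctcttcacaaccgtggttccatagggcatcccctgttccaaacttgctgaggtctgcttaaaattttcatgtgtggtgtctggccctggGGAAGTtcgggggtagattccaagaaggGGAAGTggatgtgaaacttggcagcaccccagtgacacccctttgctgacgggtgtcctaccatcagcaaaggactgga
C1qb: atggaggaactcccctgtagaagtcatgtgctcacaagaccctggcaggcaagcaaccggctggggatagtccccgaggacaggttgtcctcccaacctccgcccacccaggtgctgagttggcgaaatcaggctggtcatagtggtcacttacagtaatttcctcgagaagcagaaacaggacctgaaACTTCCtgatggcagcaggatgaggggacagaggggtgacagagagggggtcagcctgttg
The core lies at 2 places before C1qa and at 1 before C1qb. RefSeq promoter windows of 300 bases (250 before to 50 after the start) matched 6 of the 10 members. GGAAGT, chosen after the first searches, was found on either strand in 3 of the 6 (C1qa, C1qb, Cx3cr1), and in 22.6% of 33469 rat promoters. The longer GAGGAAGT was found in 0 of the 6 (2.42% of all promoters). GGGGAAGT, which contains the core, was found in C1qa alone of the 6, at both of its places (1.49% of all promoters). A match is a run of letters and not a shown binding site.

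C1qa measured 8.61, 8.41, 8.57 and 8.57 in females given 750 ppm postnatally, against 8.34, 8.21, 8.52 and 8.14 in female controls. The highest control lay within the exposed range, and the difference was 0.24 log2 (SE 0.10, limma adjusted p = 1), or 0.36 without the mismatched controls. In males given 750 ppm postnatally it measured 8.40, 8.58, 8.60 and 8.73, against 8.15, 8.24, 8.49 and 8.56 in male controls, a difference of 0.22 (SE 0.10, limma adjusted p = 0.483). These were the largest upward differences of a member from control, and neither passed the test. The remaining C1qa differences ran from -0.01 to 0.12 log2.

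C1qb measured 8.70, 8.44, 8.76 and 8.79 in females given 250 ppm perinatally, against 8.76, 8.93, 8.88 and 8.91 in female controls, a difference of -0.20 log2 (SE 0.08, limma adjusted p = 0.788). In males given 250 ppm perinatally it measured 8.63, 8.78, 8.55 and 8.71, against 8.70, 8.79, 8.83 and 9.13 in male controls, also -0.20 (SE 0.08, limma adjusted p = 0.607). Both pairs of groups overlapped. The highest male control, replicate 4, is 1 of the arrays with a mismatched label, and without the mismatched controls the male difference was -0.11. The other C1qb differences lay between -0.15 and -0.02. C1qc (probe set 10880731) differed from control by -0.09 to 0.12 log2, with 5 of 8 above and 0 of 8 at an unadjusted p under 0.05. Female control replicate 2 was the highest C1qc array of its group (7.87). Without the mismatched controls the female differences at 750 ppm turned to -0.000845 (perinatal) and -0.07 (postnatal).

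**Figure D2:**
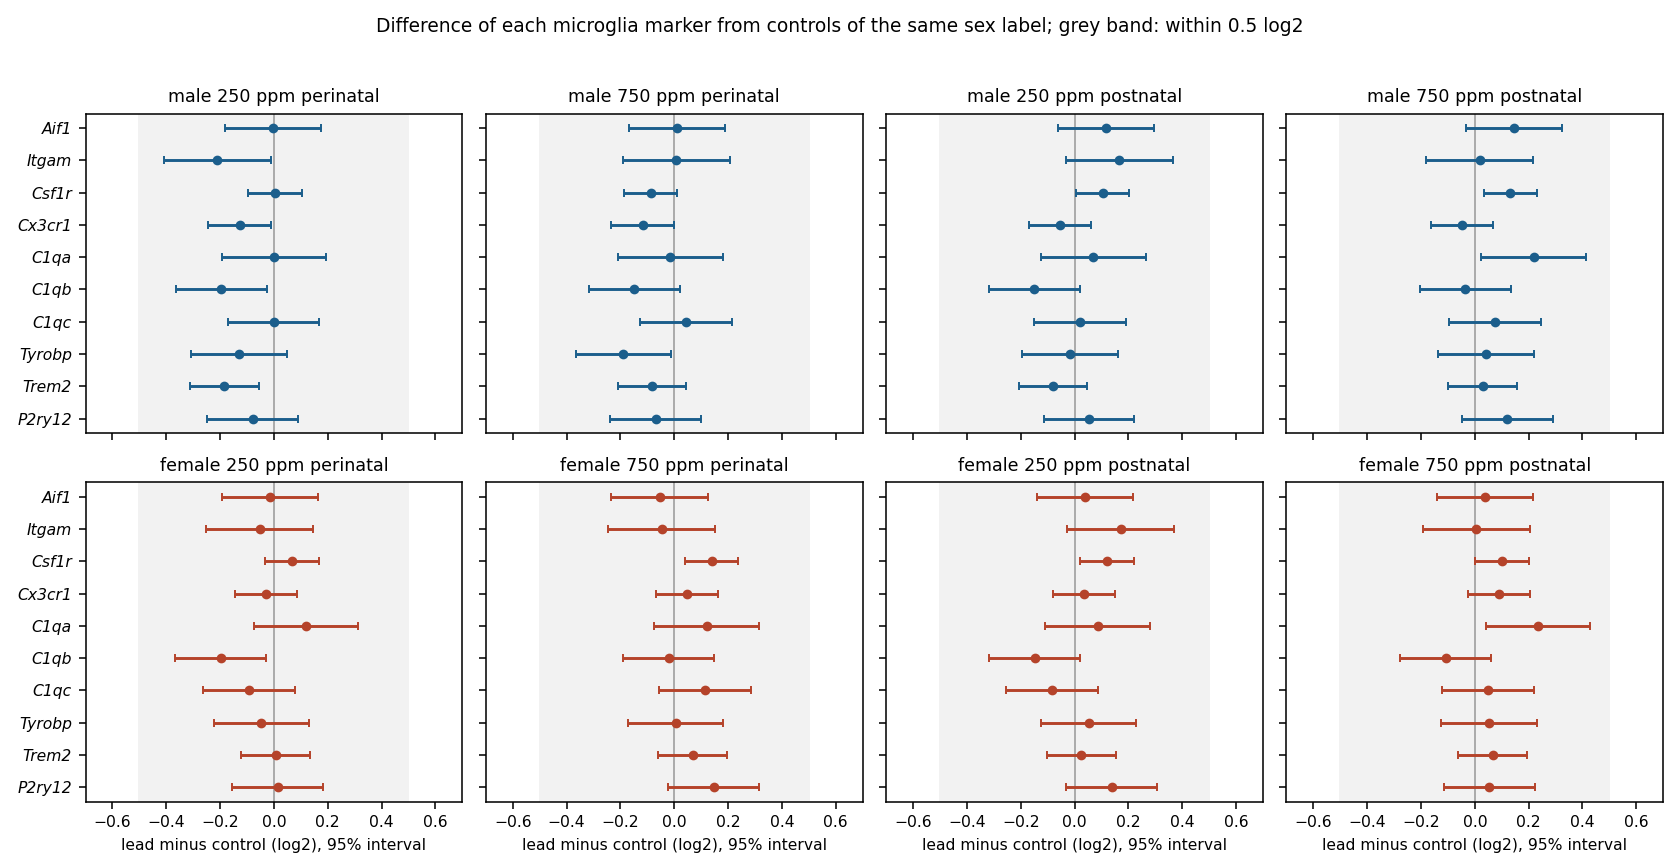
Difference between each exposed group and the controls of its sex label for the 10 microglia markers (horizontal axis, log2; points are limma differences, bars 95% confidence intervals; the grey band spans 0.5 log2 either way). Every interval lies inside the band, C1qb lies left of 0 in all 8 panels and Csf1r right of 0 in 7.

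Doses were compared within sex and window. In the limma test 0 of 40 member comparisons of 750 with 250 ppm passed (0.0342% of all probe set comparisons did), 3 of 40 had an unadjusted p under 0.05 (5.16% of all), and the smallest adjusted p was 0.502. C1qc measured 7.60, 7.65, 7.90 and 7.55 in females given 750 ppm perinatally, against 7.45, 7.38, 7.54 and 7.51 in those given 250 ppm. All 4 higher-dose females lay above all 4 lower-dose females (0.21 log2, SE 0.08, limma adjusted p = 0.502). C1qb differed in the same direction there (0.18 log2, SE 0.08, limma adjusted p = 0.602), with overlap. Itgam measured 6.38, 6.39, 6.29 and 6.51 in males given 750 ppm perinatally, against 6.11, 6.12, 6.18 and 6.27 in those given 250 ppm, again without overlap (0.22 log2, SE 0.10, limma adjusted p = 0.901). These 2 were the comparisons without overlap among 40, against 3.3% over all probe sets. After postnatal exposure 0 of 20 member comparisons of dose had an unadjusted p under 0.05, against 3.82% of all probe sets in males and 3.66% in females. With shares this low, a count of 0 among 20 says little about the members.

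Exposure windows gave the one member that passed a test. In males given 750 ppm, Csf1r measured 10.23, 10.16, 10.14 and 10.27 after postnatal exposure, against 9.94, 9.97, 10.01 and 10.01 after perinatal exposure. Every postnatal male lay above every perinatal male. Csf1r was higher by 0.22 log2 (SE 0.05, 95% interval 0.12 to 0.32, limma adjusted p = 0.0496). It was the 1 call among 40 member comparisons of windows, against 0.0608% over all probe sets, and 7 of 40 had an unadjusted p under 0.05, against 9.2%. In this comparison alone, 19.4% of all probe sets had an unadjusted p under 0.05 and 0.175% were called, and the groups lie in different ranges of title numbers, so window and range cannot be told apart.

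The Csf1r call stood close to the threshold. It was lost under 30 of 47 alternatives, 25 of them by leaving out a single array, while the difference stayed between 0.19 and 0.24 log2. Adjusted p was 0.204 without the flattened arrays (difference 0.21) and 0.0576 without the mismatched controls. The single arrays were, for males, control replicate 1, 250 ppm perinatal replicate 1, 750 ppm perinatal replicates 1 and 4, 250 ppm postnatal replicates 2 and 3 and all 4 given 750 ppm postnatally. For females they were control replicates 2, 3 and 4, 250 ppm perinatal replicates 1, 2 and 4, all 4 given 750 ppm perinatally, 250 ppm postnatal replicates 1, 2 and 4 and 750 ppm postnatal replicates 1 and 2. Without 1 of these 25, the limma adjusted p was between 0.0505 and 0.234. In the same males Alas2, the heme synthesis enzyme of red cell precursors, was also called (0.94 log2, SE 0.17, limma adjusted p = 0.00721). The 4 measured red blood cell genes were all higher (median 0.68), and their array means were 8.86 to 9.61 after postnatal exposure, against 8.46 to 8.82 after perinatal exposure. All 9 endothelial and mural genes were higher (median 0.13), as were 6 of 6 choroid plexus genes (median 1.46) and 6 of 6 meningeal fibroblast genes (median 0.39). The array means of these last 3 lists overlapped between the groups. The part of blood, vessels and adjoining tissue in the Csf1r difference was not tested.

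All 10 members were higher in postnatal than in perinatal males at both doses. At 750 ppm the median difference was 0.12 log2 and 6765 of 14506 genes were higher (median -0.009). At 250 ppm the median was 0.10 and 6950 genes were higher (median -0.005), and there both groups share a range of title numbers. Without the flattened arrays 10 of 10 were higher at 750 ppm (median 0.11) and 7 of 10 at 250 ppm (median 0.08). Tyrobp measured 9.66, 9.64, 9.68 and 9.64 after postnatal 750 ppm, against 9.32, 9.60, 9.33 and 9.45 after perinatal 750 ppm. These males did not overlap either (0.23 log2, SE 0.09, limma adjusted p = 0.174), nor did they for Aif1 (0.13 log2, SE 0.09, limma adjusted p = 0.384). C1qa and P2ry12 differed by 0.23 and 0.19 with overlap, and 3 of 10 members did not overlap, against 8.99% of all probe sets. At 250 ppm Itgam measured 6.57, 6.59, 6.57 and 6.47 in postnatal males, against 6.11, 6.12, 6.18 and 6.27 in perinatal males. That is the largest difference of a member in any comparison (0.38 log2, SE 0.10, 95% interval 0.18 to 0.58), without overlap, and it did not pass (limma adjusted p = 0.471). Itgam at 250 ppm was the 1 member of 10 without overlap there, against 2.35% of all probe sets. Over both sexes and doses 4 of 40 window comparisons had no overlap, against 4.68%. In females 9 of 10 members were higher after postnatal 250 ppm (median 0.05) and 5 of 10 after postnatal 750 ppm (median 0.02). Female Itgam at 250 ppm measured 6.40, 6.23, 6.58 and 6.59 after postnatal exposure, against 6.33, 6.06, 6.18 and 6.34 after perinatal exposure (0.22 log2, SE 0.10, limma adjusted p = 0.762), with overlap.

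Between the sexes no member passed: limma called 0 of 20 comparisons of females with males (0.0462% of all), with 1 of 20 at an unadjusted p under 0.05 (9.04% of all). Over the exposed groups limma called 0 of 10 members (0.0924% of all probe sets), with 0 of 10 at an unadjusted p under 0.05 (13.4% of all). Their differences, females minus males, had 95% intervals within -0.18 to 0.11 log2. Among arrays labelled control 0 of 10 were called (0.0% of all probe sets), with 1 of 10 at an unadjusted p under 0.05 (4.63% of all). That was Cx3cr1, which measured 10.32, 10.29, 10.39 and 10.24 in females, against 10.31, 10.48, 10.50 and 10.46 in males. These groups overlapped, the difference was -0.13 log2 (SE 0.06, limma adjusted p = 0.994), and 3 of the 8 arrays had a mismatched label. The interaction of sex with lead was called for 0 of 40 member tests (0.00513% of all probe set tests), with 3 of 40 at an unadjusted p under 0.05 (4.33% of all). The strongest was Csf1r at 750 ppm perinatal, where the difference from control was 0.14 in females and -0.09 in males. The interaction was 0.23 log2 (SE 0.07, limma adjusted p = 0.452), and 0.17 without the mismatched controls. The other 2 were Trem2 at 250 ppm perinatal (0.19) and Cx3cr1 at 750 ppm perinatal (0.17).

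A moderated F test over the 10 group means called 0 of 10 members, where it called 0.654% of all probe sets. At an unadjusted p under 0.05 there were 2 members, against 12.7% of all probe sets. Csf1r came closest (F = 4.19, limma adjusted p = 0.0873). Its group means ran from 9.98 ± 0.03 in males given 750 ppm perinatally to 10.20 ± 0.06 in males given 750 ppm postnatally. In between, rising by small steps, stood female controls, male controls, males at 250 ppm perinatal, females at 250 ppm perinatal, females at 750 ppm postnatal, females at 250 ppm postnatal, males at 250 ppm postnatal and females at 750 ppm perinatal. Neighbours in this order differed by less than 0.10 log2, and their ranges overlapped. Itgam was second (F = 2.86, limma adjusted p = 0.256), from 6.17 ± 0.07 in males given 250 ppm perinatally to 6.55 ± 0.05 in males given 250 ppm postnatally (SD, n = 4 each). The group means of the other 8 members spanned 0.15 to 0.27 log2. Males given 250 ppm perinatally had the lowest mean of Aif1, Itgam, C1qb and Trem2, and males given 750 ppm postnatally the highest of Aif1, Csf1r, C1qa, Tyrobp, Trem2 and P2ry12.

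Across the 40 arrays the members moved together only in part. Of 45 pairs, 40 had a positive Pearson r (median 0.21, and 0.13 for deviations from group means). A two-sided permutation test with Benjamini-Hochberg adjustment over the 45 was passed by 6. It shuffled all 40 arrays without regard to group, so differences between groups count in it. The r within groups was not tested. Csf1r and P2ry12 were the closest pair, with r = 0.64 and Spearman rho = 0.64 over 40 arrays (permutation p = 2e-05, adjusted p = 0.0009 for both). Without the 2 arrays farthest from the median of Csf1r r was 0.63, and within groups it was 0.54. Csf1r also correlated with Trem2 (r = 0.50, rho = 0.49, permutation adjusted p = 0.0200 and 0.0237). C1qb and C1qc had r = 0.48 and rho = 0.49 (permutation adjusted p = 0.0248 and 0.0237). The other 3 passing pairs were Csf1r with C1qa (r = 0.46), Aif1 with Csf1r (r = 0.46) and C1qb with Trem2 (r = 0.45). By Spearman rho 7 pairs passed, the added one being Aif1 with P2ry12 (rho = 0.43, permutation adjusted p = 0.0397). Within groups r was 0.55 for Csf1r and Trem2, 0.45 for C1qb and C1qc, and 0.28 for Csf1r and C1qa. Csf1r and C1qb, which did not pass over the 40 arrays (r = 0.38, rho = 0.38, permutation adjusted p = 0.0666 and 0.0883), had r = 0.64 within groups. C1qa and C1qb, chains of the same complex, had r = 0.24 and rho = 0.17 (permutation adjusted p = 0.304 and 0.416).

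Tyrobp was the member least tied to the rest. Its r with the mean of the other 9 members was 0.10, and -0.34 within groups. That of Csf1r was the highest, at 0.64 and 0.61. Other members were also weakly tied, such as C1qc (0.23, and 0.20 within groups), Itgam (0.24 and 0.09) and Cx3cr1 (0.35 and 0.12). With its receptor partner Trem2, Tyrobp had r = -0.03 and rho = -0.06 (permutation adjusted p = 0.865 and 0.804). With Csf1r its r was -0.00, against -0.48 within groups. These values describe log2 signals of 1 probe set each, and the arrays share their normalization.

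**Figure D3:**
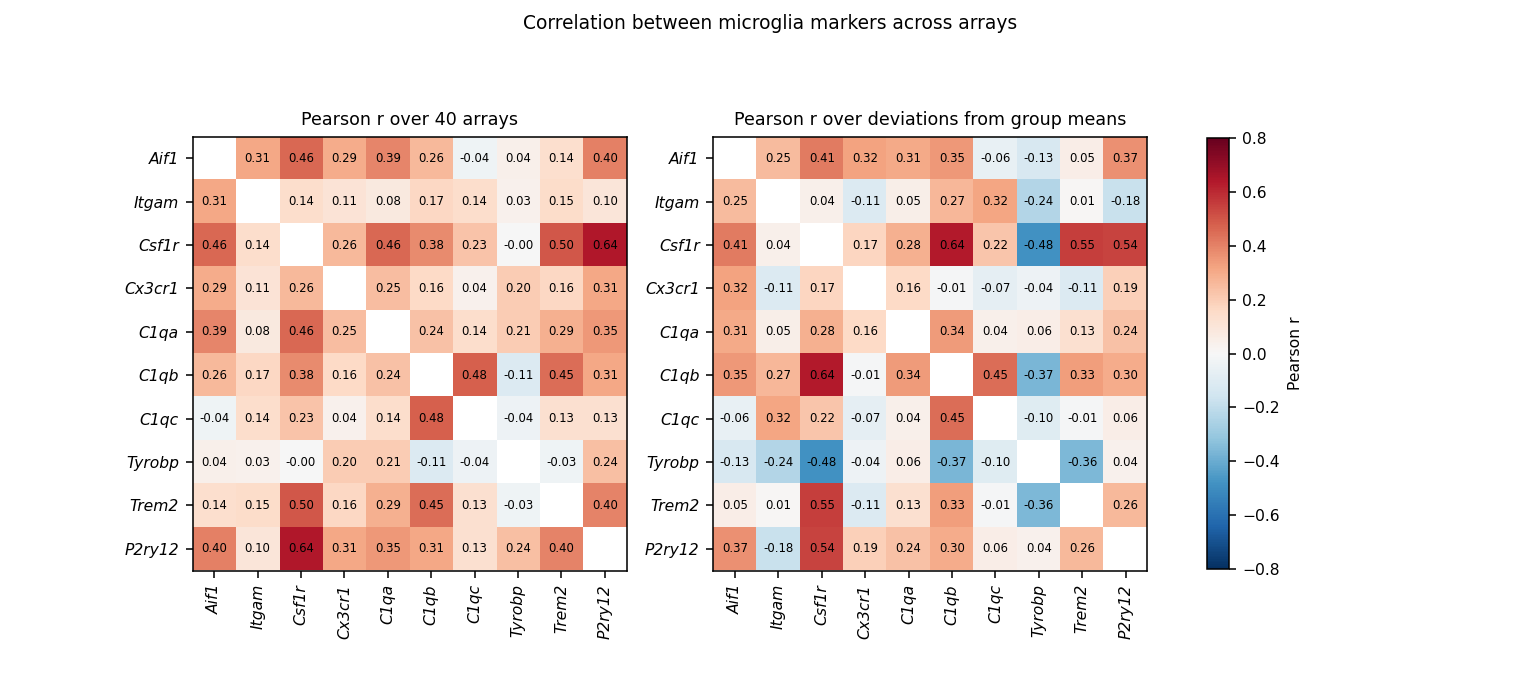
Pearson r between microglia markers over 40 arrays and over deviations from group means (both axes list the 10 genes, colour gives r). Csf1r and P2ry12 have the highest r over 40 arrays (0.64), and Tyrobp ranges from -0.11 with C1qb to 0.24 with P2ry12 there.

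The mean of the 10 members ran from 8.47 to 8.71 log2 over the arrays (SD 0.07). The 4 males given 750 ppm postnatally all lay in the upper part, at 8.66, 8.67, 8.68 and 8.71, and the 3 flattened arrays near the bottom, at 8.47, 8.48 and 8.49. Member mean and signal slope of the array had r = 0.58 and rho = 0.45 over 40 arrays. This r was 0.44 without the 2 arrays of most extreme slope, 0.36 without the flattened arrays and 0.48 within groups. The part of the signal scale in the members' differences was not tested beyond leaving out these arrays.

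The genes most like the member mean over 40 arrays were Elovl2, a fatty acid elongase (r = 0.75), Cyb561d2 (0.74), Trnau1ap (0.73), Dnaja3 (0.73), Spryd4 (0.73), Prmt1 (0.73), Ykt6 (0.72), Spata33 (0.72), Tmem80 (0.72) and Cxxc4 (0.70). None of these 10 is in a list of microglial genes used here. Over 14496 genes the median r was 0.06 and the 95th percentile 0.48. Within groups Serpine2 (0.81) and Pld4 (0.78) ranked first, and Pld4, an exonuclease of the endolysosome found in mouse microglia, had 0.69 over the 40 arrays. Next within groups stood Ampd3 (0.77), Abhd8 (0.77), Ficd (0.75), Spryd4 (0.74), Kars1 (0.74), Elovl2 (0.73), Mgat5b (0.72) and Aktip (0.72). At the other end of the lists, Cst7, a cystatin of reactive microglia in mice, had r = -0.71. It was the lowest of 24 measured activation genes, whose median r was 0.07 and whose highest was 0.51. Within groups the r of Cst7 was -0.58. Cst7 measured 6.48, 6.46 and 6.45 log2 on the flattened arrays, its highest values on the 40 arrays. The member mean was near its lowest there. The part of these arrays and of the signal scale in the r of Cst7 was not tested. These values describe arrays that share groups and normalization.

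Further genes of the microglial programme were read from 8 lists. None of their genes but 1 was called between lead and control. Over all probe sets, 6.13% of comparisons with control had an unadjusted p under 0.05 and 0.0539% were called by limma. Of the factors that keep microglia alive and quiet, 10 of 11 were measured and 0 were called by limma in the 8 comparisons with control, with 6 of 80 at an unadjusted p under 0.05. Tgfb1, which holds microglia in their homeostatic state, measured 7.89 to 8.07 in females given 750 ppm postnatally, against 7.66 to 7.89 in female controls (0.26 log2, SE 0.08, limma adjusted p = 0.984). In males given 750 ppm perinatally it differed by -0.22 (SE 0.08, limma adjusted p = 0.452). Of 10 transcription factors of the myeloid lineage 8 were measured, 0 called and 2 of 64 below an unadjusted 0.05. Among 15 further homeostatic genes 10 were measured and 0 called, with 11 of 80 below an unadjusted 0.05. Median differences of these 3 lists stayed between -0.09 and 0.05 log2. The activation list, which holds MHC class II genes, cytokines and Cst7, had 24 of 25 measured, 0 called and 16 of 192 below an unadjusted 0.05, with medians of -0.08 to 0.04. Tyrobp and Fc receptor signalling had 12 of 14 measured, 0 called and 4 of 96 below an unadjusted 0.05, and pan-myeloid and lysosome genes 17 of 17 measured, 0 called and 15 of 136. The complement partners had 10 of 16 measured, 0 called and 8 of 80 below an unadjusted 0.05. Their medians were lowest in perinatal males (-0.11 at 250 ppm, -0.13 at 750 ppm).

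The F test over the 10 groups called 2 genes of these lists. Fcgr2b, the inhibitory Fc receptor, averaged 6.92 ± 0.08 in males given 250 ppm postnatally and 6.48 ± 0.10 in males given 750 ppm perinatally, the highest and lowest group means (SD, n = 4 each; F = 5.83, limma adjusted p = 0.0173). These 2 groups did not overlap. Cd48, a surface protein of blood and immune cells, was highest in females given 250 ppm postnatally (10.73 ± 0.10) and lowest in males given 750 ppm perinatally (10.21 ± 0.16; F = 5.72, limma adjusted p = 0.0192). Both calls were lost without the flattened arrays (adjusted p = 0.0674 and 0.0873). In single comparisons Cd48 differed from control by 0.48 log2 in females given 250 ppm postnatally (SE 0.12, limma adjusted p = 0.342). It differed by 0.45 in females given 250 ppm perinatally (limma adjusted p = 0.301) and by 0.42 in those given 750 ppm perinatally (limma adjusted p = 0.254). Male controls averaged 10.27. The r of Cd48 with the member mean was 0.17 over the arrays and 0.45 within groups. Fcgr2b differed from control by -0.22 in males given 750 ppm perinatally (SE 0.08, limma adjusted p = 0.468). The other genes of smallest F test p did not pass. The border macrophage genes Cd163 and Lyve1 had limma adjusted p of 0.0584 and 0.0851, the complement receptor C5ar1 0.0771, the inhibitory receptor Siglec5 0.174, the oxidase subunit Cybb 0.181, Cst7 0.187, the Fc receptor Fcgr1a 0.277 and Cyth4 0.300. Itgb2, which pairs with Itgam in complement receptor 3, had 0.347 and the homeostatic marker Tmem119 0.368. Of signals and factors, Tgfb1 had 0.271, Cd200r1 0.504, Irf5 0.521 and Ikzf1 0.589. Cybb averaged 7.35 ± 0.06 in females given 750 ppm postnatally and 6.73 ± 0.34 in males given 750 ppm perinatally (SD, n = 4 each).

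Macrophages of the brain's borders share several microglial markers, and their own genes gave the call. Lyve1, a hyaluronan receptor of perivascular and meningeal macrophages and of lymphatic vessels, measured 7.71, 7.87, 7.96 and 7.89 in females given 750 ppm perinatally, against 7.19, 7.17, 7.31 and 7.37 in female controls. All exposed females lay above all controls. Lyve1 was higher by 0.59 log2 (SE 0.12, limma adjusted p = 0.0248), and both groups lie in the same range of title numbers. Cd163, the haemoglobin scavenger receptor of the same cells, measured 6.02, 6.25, 6.62 and 6.16, against 5.46, 5.62, 5.70 and 5.69. It differed by 0.64 log2 without overlap (SE 0.14, limma adjusted p = 0.0503), just missing the threshold. Of all probe sets, 0.157% were called in this comparison and 4.0% had groups without overlap. Over the 8 measured genes of this list 7 lay above control in those females, with a median of 0.37. Medians over all genes lay between -0.004 and 0.012 in the 8 comparisons with control. The list mean was 6.38 to 6.74 on the exposed arrays, against 6.01 to 6.35 on the control arrays, so the ranges did not overlap. Other lists separated there too. The mean of 8 astrocyte genes was 11.01 to 11.05 on the exposed arrays, against 10.92 to 10.98 on the control arrays. That of 5 oligodendrocyte precursor genes was 9.25 to 9.41 on the exposed arrays, against 9.07 to 9.20 on the control arrays. The Lyve1 call was lost without the mismatched controls (difference 0.59, adjusted p = 0.345). It was also lost without female control replicate 1, 2 or 3, or female 750 ppm perinatal replicate 2, 3 or 4 (0.56 to 0.61 log2, adjusted p between 0.0562 and 0.115). The 10 microglia markers had a median of 0.06 in the same comparison, and the part of border macrophages in their values was not tested.

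**Figure D4:**
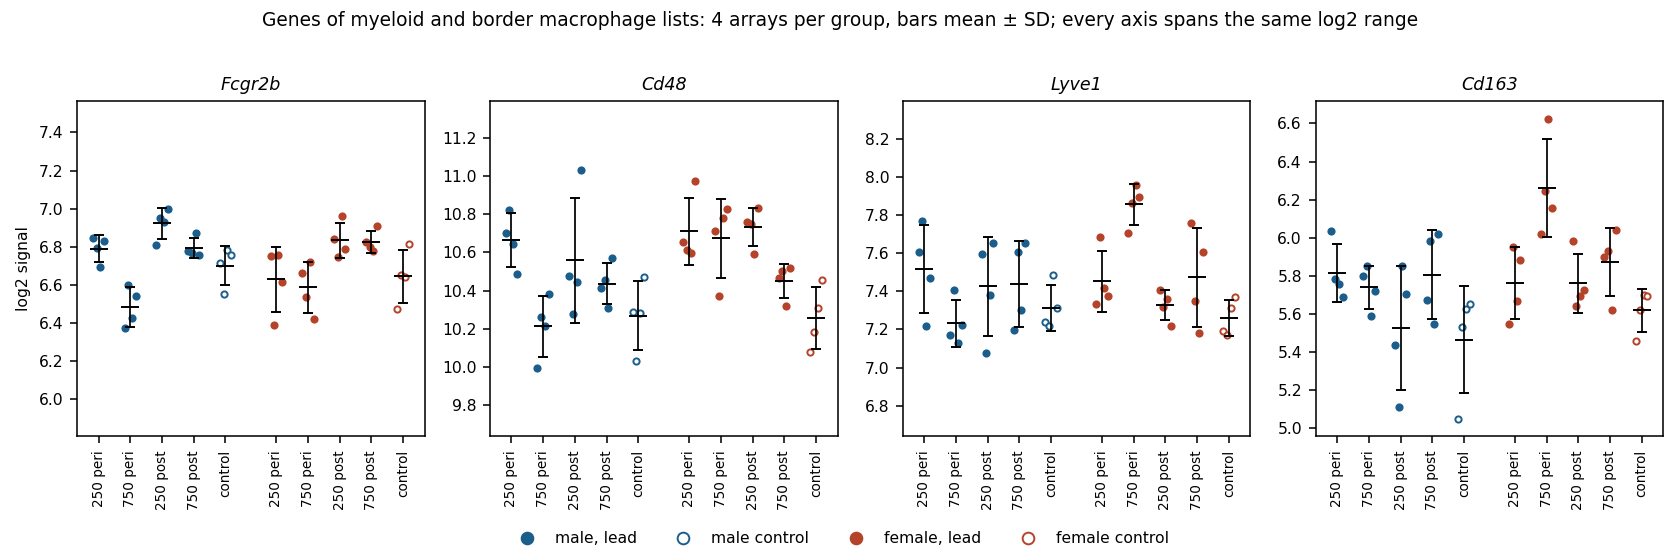
Log2 signal of Fcgr2b, Cd48, Lyve1 and Cd163 (1 panel each, all axes spanning the same log2 range) in the 10 groups, with exposed groups left of the controls of their sex; each point is 1 array and bars give mean ± SD (n = 4). Lyve1 (7.71 to 7.96) and Cd163 (6.02 to 6.62) in females given 750 ppm perinatally lie above all female controls.

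Markers of other cells were read beside the members. Counts of tests against control here stand beside 6.13% of all probe set comparisons at an unadjusted p under 0.05, and 0.0539% called. Blood monocyte and neutrophil genes averaged 5.07 to 5.46 on all 40 arrays and lymphocyte genes 5.56 to 5.86, and 0 of either list were called between lead and control by limma, with 7 of 80 and 4 of 80 at an unadjusted p under 0.05. The 9 measured myelin genes had a median above control in 8 of 8 comparisons (0.07 to 0.32), whichever way the microglia markers lay, with 41 of 72 tests at an unadjusted p under 0.05. Their highest median was in males given 250 ppm perinatally, where Cldn11 was called (0.33 log2, SE 0.06, limma adjusted p = 0.0231). The 5 measured oligodendrocyte precursor genes also had a median above control in 8 of 8 comparisons (0.09 to 0.21, 21 of 40 at an unadjusted p under 0.05), as did the 8 border macrophage genes (0.04 to 0.37, 10 of 64). Further calls were Cd93 of endothelium in males given 750 ppm perinatally (-0.57 log2, limma adjusted p = 0.0140) and Gjb6 of astrocytes in females given 750 ppm perinatally (0.42 log2, limma adjusted p = 0.0475). Exposed females were below exposed males for Alas2 (-0.40 log2, limma adjusted p = 0.0454) and Slc4a1, the red cell anion exchanger (-0.31 log2, limma adjusted p = 0.0213). The mean of the members over arrays had r = 0.56 with that of 9 endothelial and mural genes and -0.12 with that of the myelin genes. With 6 choroid plexus genes it had r = 0.23, and with 6 meningeal fibroblast genes 0.24. The part of these cells in the members' values was not tested.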

How the data were processed

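Hippocampal RNA from 40 rats, 4 in each of 10 groups of sex, dose and window, was measured on Affymetrix arrays. The deposited values are log2 signals that the authors made with RMA, per the submitters' processing notes, which also name Partek without versions or settings. RMA equalises array distributions, so a change common to most probe sets would not be seen. Groups came from the labels alone. Of 29214 probe sets 15310 carried 1 symbol, 323 several and 13581 none. A limma model (limma 3.58.1, R 4.3.3) with a mean per group and a variance trend was fitted to all probe sets and arrays. It gave 22 contrasts and an F test, with two-sided p-values adjusted by Benjamini-Hochberg over all probe sets within each contrast and calls at an adjusted p under 0.05. The fit was tested on simulated data.

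All 10 members were named. Of 19 other lists, the genes called in a contrast were named and, for lists related to microglia, the 2 of smallest F test p. So were the 10 genes most correlated with the mean of standardised members, over arrays and within groups. The correlation of Cst7 was singled out after its value was seen. The members and lists were chosen with earlier results of these data known. Pair tests used 100000 permutations. Promoter letters were read from RefSeq (GRCr8). Alternatives were a filter on the dimmest 40% of probe sets, no variance trend, weights per array, quantile normalization once more, models of just the arms compared, and leaving out mismatched controls, flattened arrays or each array.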

Additional observations from a re-analysis of the deposited data

Results flagged for a closer look

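In 5 of the 100 sets of 4 arrays (10 members in 10 groups), 1 array lay far from the other 3 by Dixon's test, whose ratio passed 0.829. Chance gives about 1 in 20 such sets. Trem2 in 1 female given 250 ppm postnatally was 8.62, against 8.42 to 8.43 in the other 3. Trem2 in 1 male given 250 ppm perinatally was 8.21, against 8.39 to 8.42, on an array with flattened signal. Itgam in 1 male given 250 ppm postnatally was 6.47, against 6.57 to 6.59. Cx3cr1 in 1 male given 750 ppm perinatally was 10.39, against 10.29 to 10.31. C1qc in 1 female control was 7.87, against 7.41 to 7.49.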

How the results depend on the processing

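The count of members called stayed at 0 under all alternatives for lead against control, dose, sex and the interaction of sex with lead. For postnatal against perinatal exposure the count of 1 (Csf1r in males given 750 ppm) became 0 under further quantile normalization, with only the groups compared, without a trend of variance, and when either the 3 mismatched controls or the 3 flattened arrays were dropped. It was 0 to 1 when single arrays were left out. The cause was not tested, beyond fewer samples where arrays were left out. The limma adjusted p of this Csf1r difference was 0.0695, 0.229, 0.0646, 0.0576 and 0.204 under the first 5. The F test count of 0 members became 1, Csf1r, with array weights (adjusted p = 0.0449), and was 0 to 1 when single arrays were left out, being 1 without replicate 2 of the males given 250 ppm perinatally (adjusted p = 0.0223). The C1qc difference in females given 750 ppm perinatally turned to -0.000845 without the 3 mismatched controls. For 12 median member differences the sign changed in 5 of 564 recomputed values, all from medians of -0.02 or 0.02. Each member had 1 probe set, so the alternative of other probe sets was not run, and fits of the compared groups gave no F test. No paired analysis was possible because the replicate numbers only follow the order of the samples and the labels pair no animals. The number of arrays and the probe response limit what differences could be seen, with a median half-width of 0.17 log2 for a member's interval.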
